A study of Mus musculus with 15 samples.

Results

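The SLC25 family is a set of carrier proteins, most of which move metabolites across the inner mitochondrial membrane. Its transcripts were followed in cultured mouse cardiomyocytes under angiotensin II (AngII) and low-dose cilengitide (ldCil). Members were all protein-coding mouse genes whose symbol begins with Slc25a, apart from Slc25a20. The GENCODE annotation of GRCm38 holds 46 such genes, of which 39 were among the 14337 genes measured and 38 passed a filter of a mean log2 RPKM of at least 0, as did 12848 genes in all. Slc25a34 was the 1 member measured but below the filter. The other 7 members (Slc25a2, Slc25a18, Slc25a21, Slc25a31, Slc25a41, Slc25a48 and Slc25a54) were not analysed here.

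RNA-Seq of poly(A)-captured RNA was performed on primary cardiomyocytes from the hearts of wild-type C57/BL6 pups aged 1 to 3 days, which were left to settle for 5 days, kept in 0.5% FBS for the next 24 h, given the agents from day 6 and collected on day 8. By their labels, all groups had this protocol and differed only in what was added. The 3 control libraries (S1 to S3) received saline, the 4 AngII libraries (S5 to S8) received 1 µM AngII, the 4 ldCil libraries (S9 to S12) received 20 nM cilengitide, and the 4 AngII+ldCil libraries (S13 to S16) received both. AngII is a peptide hormone that drives hypertrophy of cardiomyocytes, and cilengitide is a cyclic peptide ligand of αvβ3 and αvβ5 integrins. The labels do not say whether the libraries of a group came from separate cultures, so the p-values speak of the variation among these libraries, part or all of which may be technical.

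SLC25 carriers are encoded in the nucleus and made in the cytosol. Most are inserted into the inner mitochondrial membrane by the TOM complex, the small TIM chaperones and the TIM22 complex. A typical carrier exchanges or imports a small set of solutes: adenine nucleotides, phosphate, intermediates of the citric acid cycle, amino acids, cofactors, nucleotides or iron. Heart muscle is rich in mitochondria and depends on the ADP/ATP carrier and the phosphate carrier, which supply ATP synthase and release its product to the contractile proteins, and on the malate-aspartate shuttle, which brings reducing equivalents into the matrix.

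The promoters of 5 members whose data are described together are shown first: the paralogs Slc25a4 and Slc25a5, which encode the abundant ADP/ATP carriers, Slc25a1 and Slc25a39, both lowest in the same 5 libraries, and Slc25a29, whose start lies beside Slc25a47. Each runs from 250 bases before to 50 bases after the RefSeq start (GRCm38.p6, 5′ to 3′ on the gene's own strand), with every match to GGGCGG (the GC box) or CCAAT, on either strand, in capitals.
Slc25a4, chr8:46211013-46211312, minus strand: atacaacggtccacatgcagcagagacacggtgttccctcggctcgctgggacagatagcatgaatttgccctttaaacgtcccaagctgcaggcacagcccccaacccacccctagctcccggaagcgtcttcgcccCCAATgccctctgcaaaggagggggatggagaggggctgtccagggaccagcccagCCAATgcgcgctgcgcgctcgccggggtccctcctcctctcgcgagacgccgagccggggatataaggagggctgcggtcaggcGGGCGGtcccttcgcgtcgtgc
Slc25a5, chrX:36795347-36795646, plus strand: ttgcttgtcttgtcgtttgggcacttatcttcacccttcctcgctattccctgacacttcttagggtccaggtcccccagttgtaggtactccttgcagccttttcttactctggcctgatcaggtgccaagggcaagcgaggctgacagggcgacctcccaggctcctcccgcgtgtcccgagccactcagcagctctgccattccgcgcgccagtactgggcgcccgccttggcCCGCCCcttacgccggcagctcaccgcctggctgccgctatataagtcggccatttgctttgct
Slc25a1, chr16:17928170-17928469, minus strand: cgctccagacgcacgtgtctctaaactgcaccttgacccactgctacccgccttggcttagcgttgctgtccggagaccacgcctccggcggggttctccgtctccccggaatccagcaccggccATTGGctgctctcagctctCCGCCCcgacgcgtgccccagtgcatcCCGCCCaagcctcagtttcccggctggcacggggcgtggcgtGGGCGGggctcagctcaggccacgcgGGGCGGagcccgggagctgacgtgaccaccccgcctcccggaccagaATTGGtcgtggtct
Slc25a39, chr11:102407468-102407767, minus strand: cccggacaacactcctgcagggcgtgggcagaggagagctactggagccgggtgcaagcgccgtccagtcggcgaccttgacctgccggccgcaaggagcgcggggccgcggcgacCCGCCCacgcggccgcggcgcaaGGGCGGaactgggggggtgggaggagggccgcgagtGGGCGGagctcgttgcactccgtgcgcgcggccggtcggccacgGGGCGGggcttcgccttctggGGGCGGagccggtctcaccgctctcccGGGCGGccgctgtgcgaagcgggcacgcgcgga
Slc25a29, chr12:108835827-108836126, minus strand: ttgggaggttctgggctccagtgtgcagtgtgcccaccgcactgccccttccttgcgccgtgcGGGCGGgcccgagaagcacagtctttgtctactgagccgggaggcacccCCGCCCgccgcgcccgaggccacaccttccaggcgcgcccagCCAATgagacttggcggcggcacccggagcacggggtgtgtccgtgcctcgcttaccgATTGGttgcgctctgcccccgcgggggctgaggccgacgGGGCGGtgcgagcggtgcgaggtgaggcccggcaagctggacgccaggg

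The GC box was a common feature of the family's promoters. RefSeq gave 39 promoters of 300 bases for 30 members, and GGGCGG was present in 89.7% of them, against 62.8% of the promoters of all genes tested and 35.7% of all promoters in the table. CCAAT was present in 53.8% of the carrier promoters and in 37.3% of those of the genes tested. Slc25a4 held 1 GC box and 2 CCAAT boxes, Slc25a5 held 1 GC box and no CCAAT box, and Slc25a1 held 4 and 2. AAGGTCA, the letters that oestrogen-related receptors bind, occurred in 2.56% of carrier promoters (Slc25a34 alone) and 3.04% of those of the genes tested. None of these motifs contains another, both strands were searched for each, and a match describes the sequence only.

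The libraries carried the markers of the labelled cell type. The 12 cardiomyocyte markers, among them Myh6, Tnnt2 and Actc1, summed to between 18100 and 21000 RPKM in each library, and the 4 erythroid markers were not among the genes measured. The highest of these markers recurred at the same log2 values, with Nppa at 11.73, 11.98 or 12.4 in every library. How far the normalisation narrows this sum, or the ranges of the highest carriers, was not tested. The 8 fibroblast markers summed to 3890 to 4150 RPKM in control, 2970 to 4630 in AngII, 3130 to 4410 in ldCil and 1850 to 4690 in AngII+ldCil, and the 6 macrophage markers to 188 to 283, 155 to 507, 150 to 257 and 46.4 to 416 RPKM. S16 held the lowest value of both lists and S5 the highest of the macrophage list. The endothelial markers ranged from 65.5 to 127 RPKM, the smooth muscle markers from 1000 to 1890, the epicardial from 53.8 to 489, the neuronal and Schwann from 9.61 to 50.3 (Th and Sox10 were not among the genes measured) and the proliferation markers from 94.4 to 212. The 16 interferon response genes, of which 15 passed the filter, differed most between libraries: they summed to 829, 291 and 1300 RPKM in the control libraries S1 to S3, to 812, 65.5, 73.3 and 126 in the AngII libraries S5 to S8, to 1230, 991, 58.0 and 75.9 in the ldCil libraries S9 to S12, and to 146, 144, 75.9 and 75.7 in the AngII+ldCil libraries S13 to S16. Their part in the carrier values given below was not tested.

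A small number of carriers held most of the family's message. Levels are log2 RPKM, which corrects for transcript length, so they can be set side by side between genes. Slc25a4 (ANT1, the ADP/ATP carrier of heart and skeletal muscle) had a mean of 10.15 over the 15 libraries, Slc25a3 (the phosphate carrier) 9.38 and Slc25a5 (ANT2, the ADP/ATP carrier of proliferating tissues) 8.85. Together they made up 74.2% to 79.0% of the summed RPKM of the 39 members, which lay between 2580 and 3250, with Slc25a4 alone at 35.1% to 43.1%. The next levels were those of Slc25a11 (the oxoglutarate/malate carrier) at 6.48, Slc25a23 (a calcium-regulated ATP-Mg/phosphate carrier) at 6.27, Slc25a39 (a carrier for glutathione import) at 6.18 and Slc25a12 (aralar, the aspartate/glutamate carrier of excitable tissues) at 6.14. These 7 members were the ones with a mean of at least 6.

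The family spanned more than 10 log2 units. In all, 29 members had a mean of at least 2 and 10 lay under 2, with Slc25a27 at 0.24, Slc25a53 at 0.17 and Slc25a34 at −0.18 as the lowest. Of the 38 neighbouring pairs in the order of mean levels, 5 kept the same order in all 15 libraries: Slc25a4 above Slc25a3, Slc25a3 above Slc25a5, Slc25a5 above Slc25a11, Slc25a12 above Slc25a51, and Slc25a40 above Slc25a26. Within the run from Slc25a11 to Slc25a12, and within that from Slc25a51 to Slc25a40, no neighbouring pair kept its order in all 15 libraries, and the same held from Slc25a26 down to Slc25a34.

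**Figure D1:**
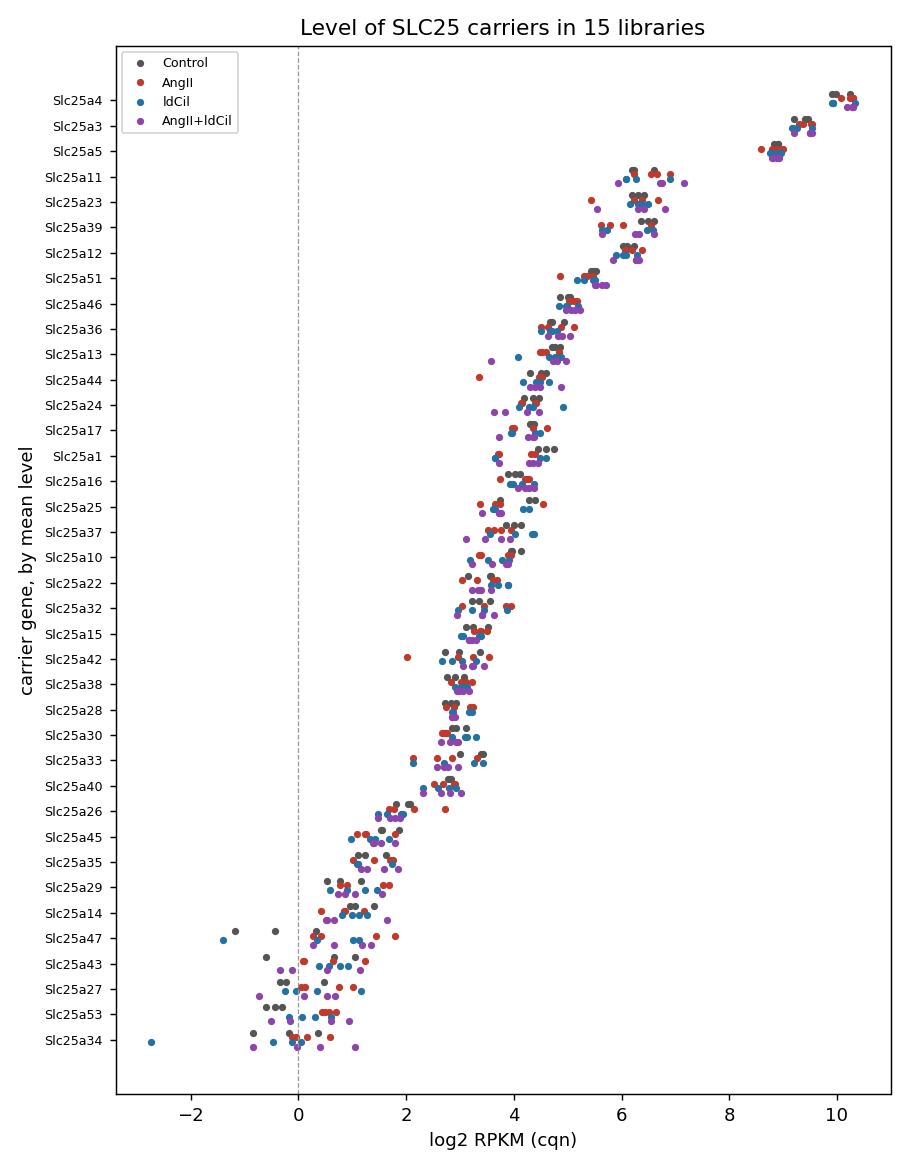
Log2 RPKM of the SLC25 members reported here (rows, by mean level) in the 15 libraries (points, coloured by group), with a dashed line at the filter of 0. Slc25a4, Slc25a3 and Slc25a5 stand apart in every group, with means of 10.15, 9.38 and 8.85 over the 15 libraries. The ranges of the groups overlap in most rows.

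AngII against control asked whether a hypertrophic stimulus was accompanied by other carrier levels. By limma, 0 of 38 members passed an adjusted p of 0.05, as did 0% of all genes tested, with a smallest adjusted p of 0.782 both for the members and over all genes. At an unadjusted p under 0.05 stood 2 members, 5.26%, against 6.04% of all genes, and both were higher with AngII (3.41% of all genes in that direction). Without S5 there were 6, with 2 higher and 4 lower, against 12.8% of all genes. The median log2 fold change was 0.00 for the members and 0.02 for all genes, and 19 of 38 members lay above 0 against 53.7% of all genes. In 3 members the AngII and control values did not overlap, 7.89% against 8.74% of all genes, with 1 higher (5.06% of all genes) and 2 lower (3.68%) in AngII.

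The ADP/ATP and phosphate carriers differed little between control and AngII. Slc25a4 (chromosome 8: 46206797 to 46211284) stood at 9.99, 10.24 and 9.90 in control and at 10.24, 10.30, 10.30 and 10.07 in AngII, and the groups overlapped. Its log2 fold change was 0.18 (95% interval −0.12 to 0.48, adjusted p = 0.803 by limma). With ldCil alone its values were 9.90, 9.92, 9.92 and 10.34, and with both agents 10.18, 10.30, 10.27 and 10.30. S12 was thus the highest of all libraries for Slc25a4, and the other ldCil libraries lay close to S3, the lowest control library.

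Slc25a3 (chromosome 10: 91116574 to 91124059) gave 9.40, 9.47 and 9.20 in control, 9.37, 9.51, 9.53 and 9.30 in AngII, 9.18, 9.26, 9.16 and 9.54 in ldCil, and 9.50, 9.54, 9.50 and 9.20 in AngII+ldCil. All 4 groups overlapped, and the AngII difference of 0.07 had an interval of −0.22 to 0.36. Slc25a5 (chromosome X: 36795651 to 36798807) gave 8.83, 8.91 and 8.90 in control, 8.80, 8.89, 8.99 and 8.59 in AngII, 8.93, 8.81, 8.75 and 8.97 in ldCil, and 8.89, 8.92, 8.80 and 8.81 in AngII+ldCil. Its AngII difference was −0.06 (interval −0.30 to 0.18), so that these intervals leave out a change of either gene by 1 log2 unit. For these 2 genes and Slc25a4, the intervals of the difference between AngII+ldCil and AngII all included 0 and reached from −0.26 to 0.31 at their widest ends.

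Among the carriers of the malate-aspartate shuttle, none passed the test. The SD within groups was 0.38 for Slc25a11, 0.169 for Slc25a12 and 0.39 for Slc25a13, against a median of 0.291 over the members. Slc25a11 (chromosome 11: 70644196 to 70647479) stood at 6.19, 6.61 and 6.23 in control, 6.24, 6.66, 6.90 and 6.54 in AngII, 6.26, 6.08, 6.08 and 6.90 in ldCil, and 6.75, 6.71, 7.16 and 5.93 in AngII+ldCil. The last of these, S16, was the lowest of all 15. The AngII difference was 0.24 (interval −0.32 to 0.81).

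Slc25a12 gave 6.10, 6.24 and 6.02 in control, 6.38, 6.09, 6.20 and 6.06 in AngII, 6.03, 6.08, 5.89 and 6.29 in ldCil, and 6.26, 6.33, 6.26 and 5.85 in AngII+ldCil. Slc25a13 (citrin, its liver-type paralog) gave 4.86, 4.77 and 4.71 in control, 4.83, 4.49, 4.52 and 4.60 in AngII, 4.87, 4.65, 4.07 and 4.76 in ldCil, and 4.81, 4.73, 4.96 and 3.58 in AngII+ldCil. S16 was again the lowest for both. Their AngII differences were 0.06 (interval −0.23 to 0.35) and −0.17 (interval −0.75 to 0.41).

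Slc25a22, a glutamate carrier, was higher in most ldCil libraries than elsewhere, at 3.71, 3.89, 3.90 and 3.57 against 3.58, 3.15 and 3.56 in control, 3.31, 3.69, 3.62 and 3.04 in AngII, and 3.23, 3.33, 3.57 and 3.39 in AngII+ldCil. The ldCil and control values overlapped by 1 library, and the difference of 0.34 did not pass the test (SE 0.173, interval −0.03 to 0.71, adjusted p = 0.966 by limma). Without S2, the lowest control library, it was 0.20.

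The calcium-regulated ATP-Mg/phosphate carriers load adenine nucleotides into the matrix. Slc25a23 was at 6.30, 6.41 and 6.20 in control, 5.44, 6.24, 6.38 and 6.67 in AngII, 6.30, 6.38, 6.15 and 6.49 in ldCil, and 6.42, 6.31, 6.81 and 5.54 in AngII+ldCil. S5 and S16 were the 2 lowest libraries, and the AngII difference of −0.12 (interval −0.71 to 0.47) became 0.13 without S5. Slc25a25 gave 4.29, 3.75 and 4.39 in control and 3.73, 3.73, 3.41 and 3.77 in AngII+ldCil, which overlapped at S2 (difference −0.49, SE 0.256, adjusted p = 0.849 by limma). In AngII it stood at 4.54, 3.65, 3.38 and 3.75, and in ldCil at 4.17, 4.29, 3.66 and 3.62.

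The citrate and dicarboxylate carriers had lower means in all 3 treated groups than in control, without passing the test. Slc25a1, which exports citrate for fatty acid synthesis (chromosome 16: 17925223 to 17928219), was at 4.60, 4.45 and 4.74 in control and at 4.32, 3.73, 3.70 and 4.40 in AngII, with no overlap. The log2 fold change was −0.56 (SE 0.264, interval −1.13 to 0.00, adjusted p = 0.782 by limma). In ldCil it stood at 4.60, 4.48, 3.65 and 3.66, with 2 libraries at the control level and 2 well under it (difference −0.50, SE 0.264). In AngII+ldCil it stood at 4.28, 4.45, 3.73 and 4.35, where S14 equals the control library S2 at 2 decimals and lies under it in the unrounded values. The AngII by ldCil interaction, which asks whether the AngII difference was another with ldCil than without, was 0.67 for Slc25a1 (interval −0.10 to 1.44, adjusted p = 0.958 by limma).

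Slc25a10, which exchanges malate or succinate for phosphate, gave 3.96, 4.14 and 3.94 in control and 3.79, 3.92, 3.19 and 3.52 in ldCil, with no overlap and a log2 fold change of −0.41 (SE 0.211, interval −0.86 to 0.04, adjusted p = 0.966 by limma). The AngII values were 3.89, 3.40, 3.36 and 3.94, which overlapped control at S8, and the AngII+ldCil values 3.90, 3.85, 3.60 and 3.22. Like those of ldCil, the AngII+ldCil values lay under each control value, the nearest libraries being S13 and S3.

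The cofactor carriers held the member with the lowest p-value in AngII+ldCil against AngII. Slc25a51, the mitochondrial NAD carrier (chromosome 4: 45395923 to 45408766), stood at 4.85, 5.30, 5.47 and 5.36 in AngII and at 5.50, 5.52, 5.71 and 5.63 in AngII+ldCil. The groups did not overlap, and S5 was the lowest of all libraries. The control values were 5.48, 5.43 and 5.52 and the ldCil values 5.17, 5.47, 5.30 and 5.51, so that the AngII libraries lay within or under the control range and the AngII+ldCil libraries within or above it. The log2 fold change against AngII was 0.35 (SE 0.129, interval 0.07 to 0.62, unadjusted p = 0.0170, adjusted p = 1 by limma), and the exact permutation test over 4 against 4 libraries gave p = 0.0286, the smallest it can give. Without S5 the fold change was 0.21, and over the libraries left out in turn it ranged from 0.21 to 0.42.

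Slc25a51 ranked 89th by p among the 12848 genes in that comparison, in which 1 of 38 members, 2.63%, lay under an unadjusted p of 0.05 against 2.58% of all genes, 1.61% in the direction of Slc25a51. Groups without overlap occurred in 1 member (2.63%) against 1.55% of all genes. The interaction value of Slc25a51 was 0.46 (SE 0.190, interval 0.06 to 0.87, adjusted p = 0.958 by limma).

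Slc25a53, a paralog of the NAD carrier whose own substrate is not settled (chromosome X: 136981116 to 137038302), was the member with the lowest p in AngII against control. It was low throughout, at −0.31, −0.60 and −0.43 in control and 0.70, 0.43, 0.49 and 0.56 in AngII, with no overlap. The log2 fold change was 0.99 (SE 0.355, interval 0.24 to 1.75, unadjusted p = 0.0137, adjusted p = 0.782 by limma), and the exact permutation p of 0.0571 was the smallest that 3 against 4 libraries allow. The ldCil values, 0.07, 0.30, 0.60 and −0.18, also lay above each control value (difference 0.65, SE 0.355), whereas those of AngII+ldCil, −0.51, −0.16, 0.94 and 0.60, did not. Its difference between AngII+ldCil and control was 0.66 (interval −0.09 to 1.42), or 0.42 without S15, and its interaction −0.98 (interval −2.01 to 0.05). All of these values lie near 1 RPKM, where the depth is unknown.

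Like Slc25a51 and Slc25a53, the remaining cofactor carriers did not pass the test. Slc25a26, the S-adenosylmethionine carrier, was at 2.73, 1.77, 2.15 and 1.68 in AngII and 1.70, 1.88, 1.48 and 1.80 in AngII+ldCil (difference −0.37, SE 0.223, interval −0.84 to 0.11), with 2.08, 2.04 and 1.81 in control and 1.47, 1.65, 1.91 and 1.95 in ldCil. S5 was the highest of the 15, and without it the difference was −0.15. Slc25a16 and Slc25a42 (coenzyme A), Slc25a17 (peroxisomal) and Slc25a32 (folate or FAD) had mean levels of 4.13, 3.04, 4.23 and 3.42. The 8 cofactor carriers had a median AngII fold change of 0.06, with 5 above 0 and 3 below.

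The amino acid carriers moved in no shared direction. Slc25a44, a branched-chain amino acid carrier, gave 3.36, 4.47, 4.51 and 4.53 in AngII and 4.30, 4.48, 4.39 and 4.88 in AngII+ldCil, with 4.30, 4.50 and 4.59 in control and 4.42, 4.17, 4.65 and 4.48 in ldCil. S5 alone was low, and the difference of 0.30 (SE 0.228, interval −0.19 to 0.79) became 0.01 without S5 and −0.11 without S5 and S16. Slc25a15, the ornithine carrier of the urea cycle, gave 3.37, 3.50, 3.39 and 3.26 in AngII and 3.29, 3.22, 3.16 and 3.17 in AngII+ldCil, which overlapped narrowly (difference −0.17, SE 0.129, exact permutation p = 0.0571). It was at 3.25, 3.53 and 3.11 in control and 3.02, 3.06, 3.40 and 3.36 in ldCil. Slc25a38, the glycine carrier of haem synthesis, had a mean of 3.01.

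The pyrimidine nucleotide carriers were Slc25a36, with a mean of 4.77, and Slc25a33. Slc25a33 was at 3.39, 3.01 and 3.43 in control, 3.32, 2.13, 2.58 and 2.86 in AngII, 3.27, 3.42, 2.13 and 2.70 in ldCil, and 2.77, 2.97, 2.70 and 2.57 in AngII+ldCil. Each AngII+ldCil value lay under each control value, whereas AngII and control overlapped because of S5. The differences from control were −0.55 with AngII (SE 0.301, interval −1.20 to 0.09) and −0.52 with AngII+ldCil (SE 0.301, interval −1.17 to 0.12), and neither passed the test. Without S6 the AngII difference was −0.36.

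Of the iron and glutathione carriers, Slc25a37 (mitoferrin 1, the erythroid-type iron importer) lay at 4.13, 3.85 and 4.0 in control, 3.95, 3.53, 3.64 and 3.76 in AngII, 4.33, 4.38, 4.02 and 3.55 in ldCil, and 3.93, 3.77, 3.46 and 3.12 in AngII+ldCil. The difference between AngII+ldCil and control was −0.43 (SE 0.215, interval −0.89 to 0.03, adjusted p = 0.849 by limma), and −0.28 without S16. Slc25a28, the mitoferrin of other tissues, lay at 2.92, 2.73 and 2.83 in control, 3.19, 3.25, 2.89 and 2.75 in AngII, 2.85, 3.23, 3.17 and 2.88 in ldCil, and 2.86, 2.85, 2.89 and 2.90 in AngII+ldCil. Its interaction was −0.35 (interval −0.79 to 0.09).

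Slc25a30, a relative of the uncoupling proteins, had the highest share of variance between groups of the 38 members, 60.5%. It stood at 2.92, 2.86 and 3.12 in control, 2.67, 2.75, 2.71 and 2.76 in AngII, 3.29, 3.10, 3.14 and 2.85 in ldCil, and 2.96, 2.93, 2.64 and 2.82 in AngII+ldCil. AngII lay under each control value (difference −0.25, SE 0.139, unadjusted p = 0.0961, adjusted p = 0.786 by limma). It was named here after its values were seen. Over the 38 members the median share of variance between groups was 20.0%, against 18.3% over all genes tested, and the median SD within groups was 0.291 against 0.294. The shares are not corrected for the number of groups, and so lie above 0 even without a treatment effect.

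The remaining members are given by level. Slc25a24, the third ATP-Mg/phosphate carrier, had a mean of 4.26, Slc25a40, the paralog of Slc25a39, 2.72, and Slc25a14 and Slc25a27, relatives of the uncoupling proteins, 0.96 and 0.24. Slc25a46, an outer membrane member linked to mitochondrial dynamics, had a mean of 5.04, and the carriers of other or unsettled role included it together with Slc25a45 at 1.46, Slc25a35 at 1.38 and Slc25a43 at 0.47. None of these 8 lay under an unadjusted p of 0.05 in any of the 5 contrasts.

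Slc25a47, a carrier mainly known from liver (chromosome 12: 108836046 to 108856815), was low and variable. It was at −1.17, 0.33 and −0.43 in control and 0.42, 1.79, 1.44 and 0.28 in AngII, which overlapped at S8. The log2 fold change was 1.41 (SE 0.592, interval 0.14 to 2.67, unadjusted p = 0.0318, adjusted p = 0.782 by limma). In ldCil it stood at −1.40, 0.34, 1.13 and 1.01, and in AngII+ldCil at 0.66, 0.28, 1.34 and 1.18, a difference from control of 1.28 (SE 0.592, interval 0.02 to 2.55). The lowest libraries, S9, S1 and S3, had interferon sums of 1230, 829 and 1300 RPKM, whereas S10 and S5, with sums of 991 and 812 RPKM, lay at 0.34 and 0.42.

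Slc25a47 and Slc25a29 are neighbours on opposite strands, with 162 bases between their annotated GENCODE starts (108836046 and 108835883), although RefSeq places the start of Slc25a47 at 108851129. Slc25a29, a carrier of basic amino acids, was at 0.78, 1.17 and 0.53 in control, 0.78, 1.57, 1.69 and 0.90 in AngII, 0.90, 0.58, 1.24 and 1.46 in ldCil, and 1.06, 0.74, 1.55 and 0.86 in AngII+ldCil. Its 5 highest libraries were S6, S7, S11, S12 and S15, in each of which Slc25a47 stood at 1.01 or more, and 5.14% of all genes had their 5 highest values in the same libraries. In S16, Slc25a47 stood at 1.18 and Slc25a29 at 0.86. The pair was named here after the values were seen. Slc25a43 and Slc25a5, 18448 bases apart on chromosome X, were the only other members within 100000 bases of each other.

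**Figure D2:**
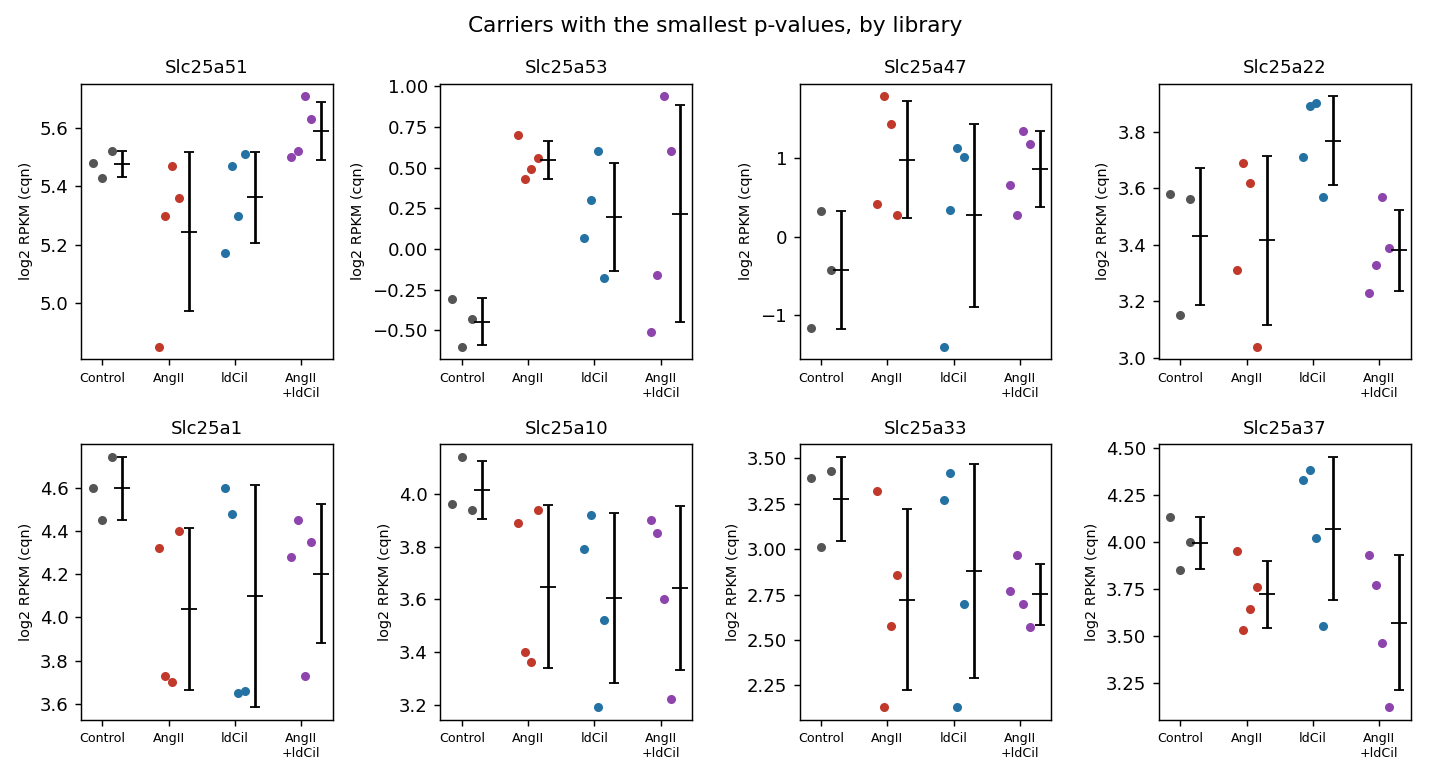
Log2 RPKM of 8 carriers in each library (points) by group, with the group mean (dash) and SD (bars) beside the points, each panel with an axis of its own that does not start at 0. Slc25a51 lies at 4.85 to 5.47 in AngII and at 5.50 to 5.71 in AngII+ldCil, and Slc25a53 lies under 0 in each control library and above 0.4 in each AngII library.

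ldCil against control was compared to see whether ldCil alone went with other carrier levels. By limma 0 of 38 members passed an adjusted p of 0.05 (0% of all genes, smallest adjusted p 0.966) and 0 an unadjusted p of 0.05, against 1.95% of all genes. Values did not overlap in 2 members, Slc25a10 and Slc25a53, 5.26% against 6.87% of all genes. The median log2 fold change was −0.04 for the members and 0.00 for all genes, and 14 of 38 members lay above 0 against 50.3%.

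AngII+ldCil against control gave 0 members at an adjusted p of 0.05 (0% of all genes, smallest adjusted p 0.849) and 1, Slc25a47, at an unadjusted p of 0.05, 2.63% against 5.62% of all genes by limma. In 3 members, Slc25a1, Slc25a10 and Slc25a33, the values did not overlap, 7.89% against 13.5% of all genes. All 3 were lower with treatment (6.11% of all genes) and none was higher (7.35%). The median log2 fold change was −0.03 for the members and 0.05 for all genes, and 18 of 38 members lay above 0 against 58.4%. AngII, ldCil and AngII+ldCil were set against the same 3 control libraries, so these comparisons are not independent.

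AngII+ldCil against AngII, the comparison that asks what ldCil added to AngII-stimulated cardiomyocytes, gave 0 members at an adjusted p of 0.05 (0% of all genes, smallest adjusted p 1 by limma) and a median of 0.00 against 0.01 for all genes, with 18 of 38 members above 0 against 52.4%. The interaction gave 0 members at an adjusted p of 0.05 (0% of all genes) and 1, Slc25a51, at an unadjusted p of 0.05, 2.63% against 3.86% of all genes, which split into 1.84% in its direction and 2.02% in the other, with a median of 0.05 against 0.02 for all genes and 23 of 38 members above 0 against 52.2%.

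**Figure D3:**
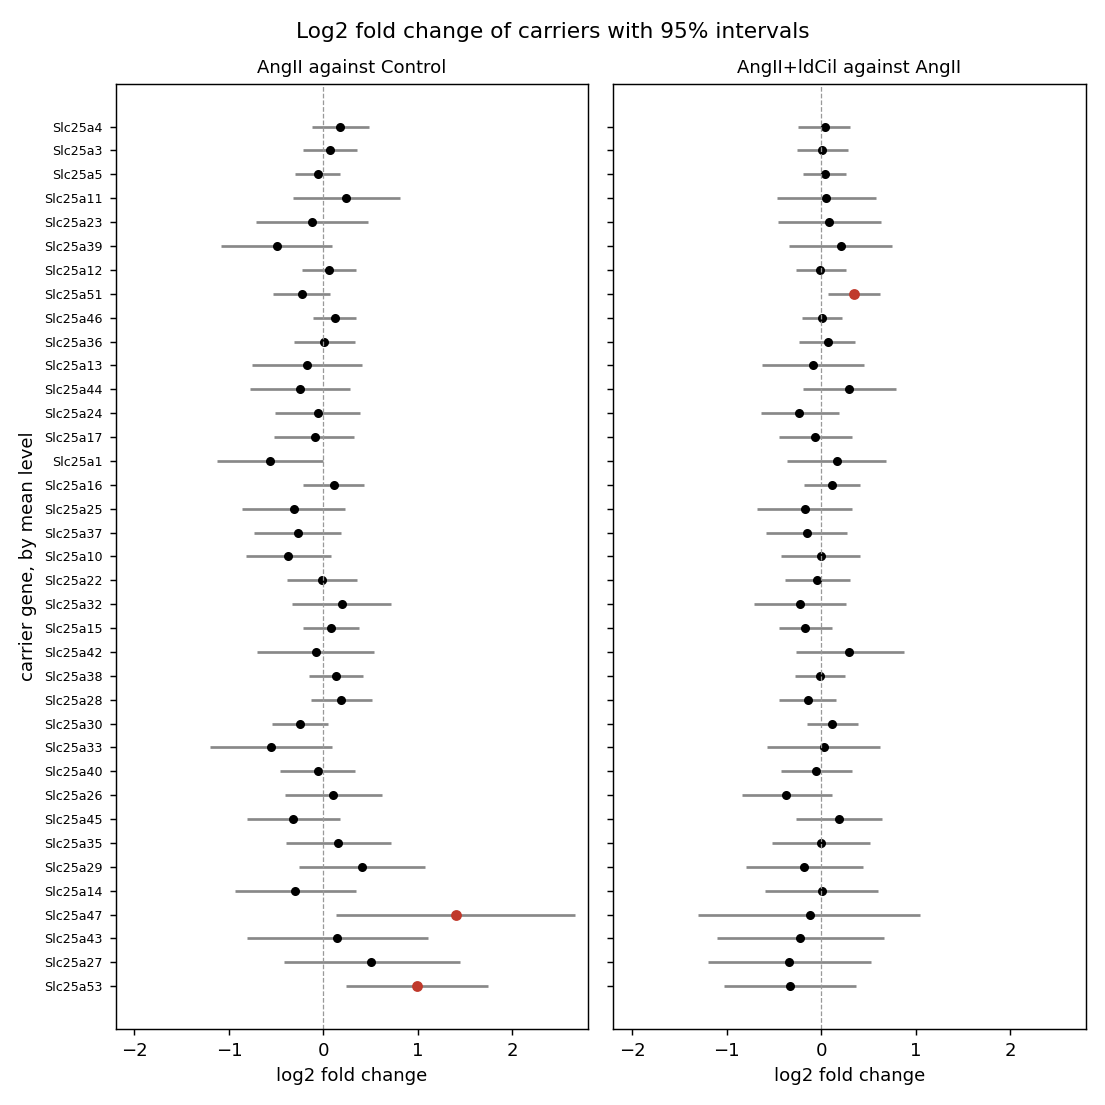
Log2 fold change (points) with 95% intervals (lines) of the members tested and reported here, by mean level, for AngII against control and AngII+ldCil against AngII, with members at an unadjusted p under 0.05 in red. The red points are Slc25a47 (1.41) and Slc25a53 (0.99) on the left and Slc25a51 (0.35) on the right, and none passed the adjusted threshold.

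The balance between paralogs was compared within each library as the difference of their log2 RPKM, over 7 pairs and 4 comparisons. With 3 against 4 libraries the exact permutation test cannot give a p under 0.0571, and with 4 against 4 none under 0.0286, so that none of the 28 tests could reach an adjusted p of 0.05 whatever the data. The smallest adjusted p was 0.457. Slc25a4 exceeded Slc25a5 by 1.16, 1.33 and 1.00 in the control libraries, 1.43, 1.41, 1.31 and 1.48 in AngII, 0.97, 1.11, 1.17 and 1.37 in ldCil and 1.29, 1.39, 1.47 and 1.49 in AngII+ldCil. The means were 1.16 ± 0.164 (SD, n = 3), 1.41 ± 0.0729 (n = 4), 1.16 ± 0.166 (n = 4) and 1.41 ± 0.0924 (n = 4). AngII and control overlapped at a single control library, S2 (exact permutation p = 0.114, adjusted p = 0.457).

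Slc25a28 lay below Slc25a37 in each library, by a difference of −1.21, −1.12 and −1.17 in control, −0.76, −0.29, −0.75 and −1.01 in AngII, −1.48, −1.16, −0.85 and −0.67 in ldCil and −1.07, −0.91, −0.57 and −0.23 in AngII+ldCil. AngII and AngII+ldCil did not overlap control, each with an exact permutation p of 0.0571, the smallest that 3 against 4 libraries allow, and an adjusted p of 0.457. Slc25a12 exceeded Slc25a13 by 1.34 ± 0.114 (SD, n = 3) in control, 1.57 ± 0.0913 (n = 4) in AngII, 1.49 ± 0.274 (n = 4) in ldCil and 1.65 ± 0.429 (n = 4) in AngII+ldCil, the last of these with 2.27 in S16. The other 4 pairs, Slc25a39 with Slc25a40, Slc25a36 with Slc25a33, and Slc25a23 and Slc25a25 with Slc25a24, had exact permutation p-values of 0.114 or more in the 4 comparisons.

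**Figure D4:**
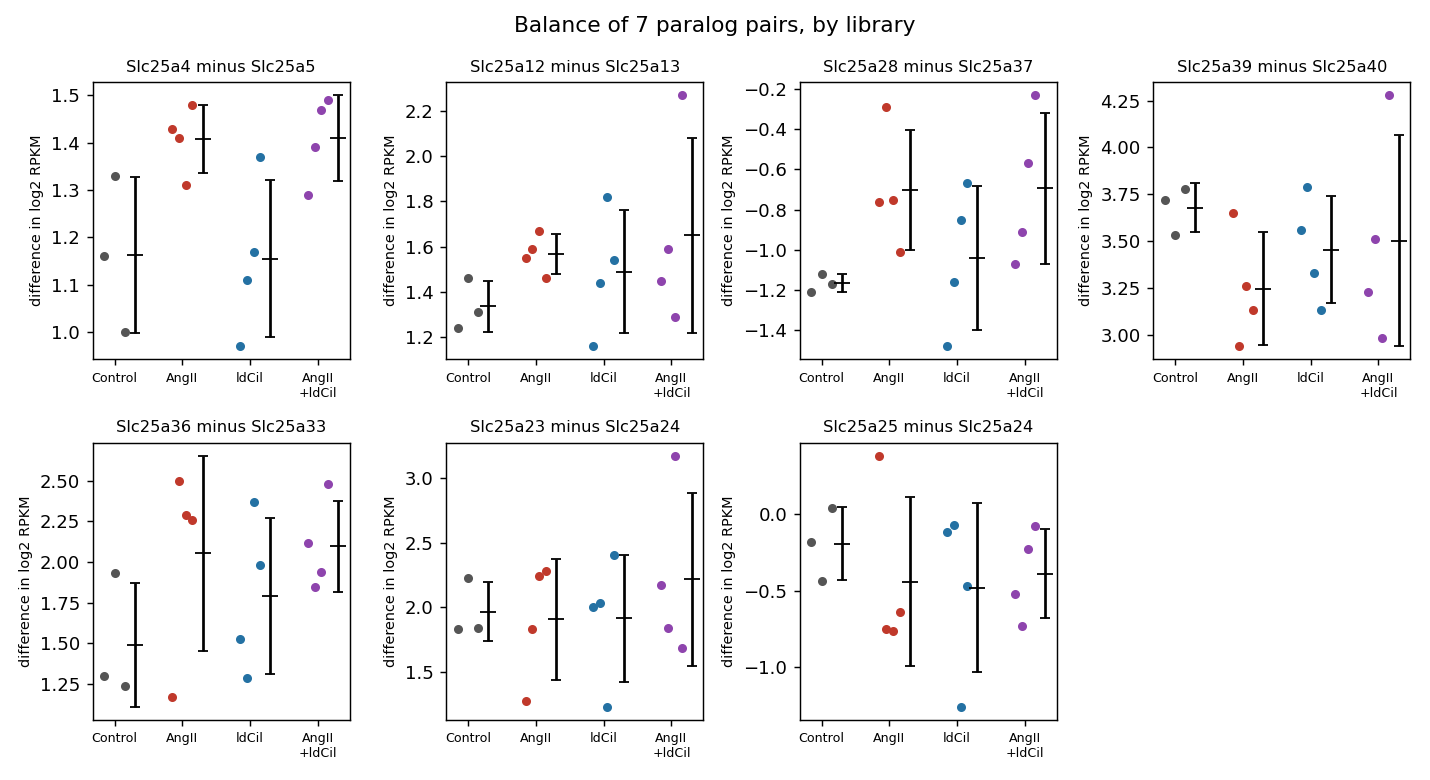
Difference in log2 RPKM between the members of 7 paralog pairs in each library (points) by group, with the group mean (dash) and SD (bars), each panel with an axis of its own. Slc25a28 minus Slc25a37 is near −1.2 in the control libraries and between −1.01 and −0.23 in AngII and AngII+ldCil, except S13 at −1.07.

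For the median carrier 20% of the variance lay between groups, against 18.3% over all genes tested, and the rest lay between libraries of 1 group. With 4 groups and 15 libraries such a share lies well above 0 even without a treatment effect, so it does not measure one. Slc25a1, Slc25a17, Slc25a25 and Slc25a39 had their 5 lowest values in the same libraries, S6, S7, S11, S12 and S15, which come from 3 treatments. This was so for 4 of 38 members, 10.5%, and for 5.94% of all genes tested. The same libraries held the 5 highest values of 1 member, 2.63%, against 5.14% of all genes. Slc25a39 stood at 6.50, 6.37 and 6.60 in control, 6.54, 5.62, 5.79 and 6.03 in AngII, 6.48, 6.58, 5.64 and 5.73 in ldCil, and 6.25, 6.33, 5.63 and 6.60 in AngII+ldCil. These libraries had interferon sums of 58.0 to 75.9 RPKM, as did S16 with 75.7, in which Slc25a39 stood at 6.60. Slc25a25 and Slc25a33 had their 5 highest values in S1, S3, S5, S9 and S10, as did 4.51% of all genes, and no member had its 5 lowest there, against 2.48%. The shares of members lay on both sides of those of all genes. S5 held the lowest value of 7 and the highest of 6 of the 39 members, and S15 the highest of 8. The matching counts over all genes were not made, so these numbers are not a trait of the carriers. The pattern of shared highest and lowest libraries was noticed in these data, and its source was not tested.

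**Figure D5:**
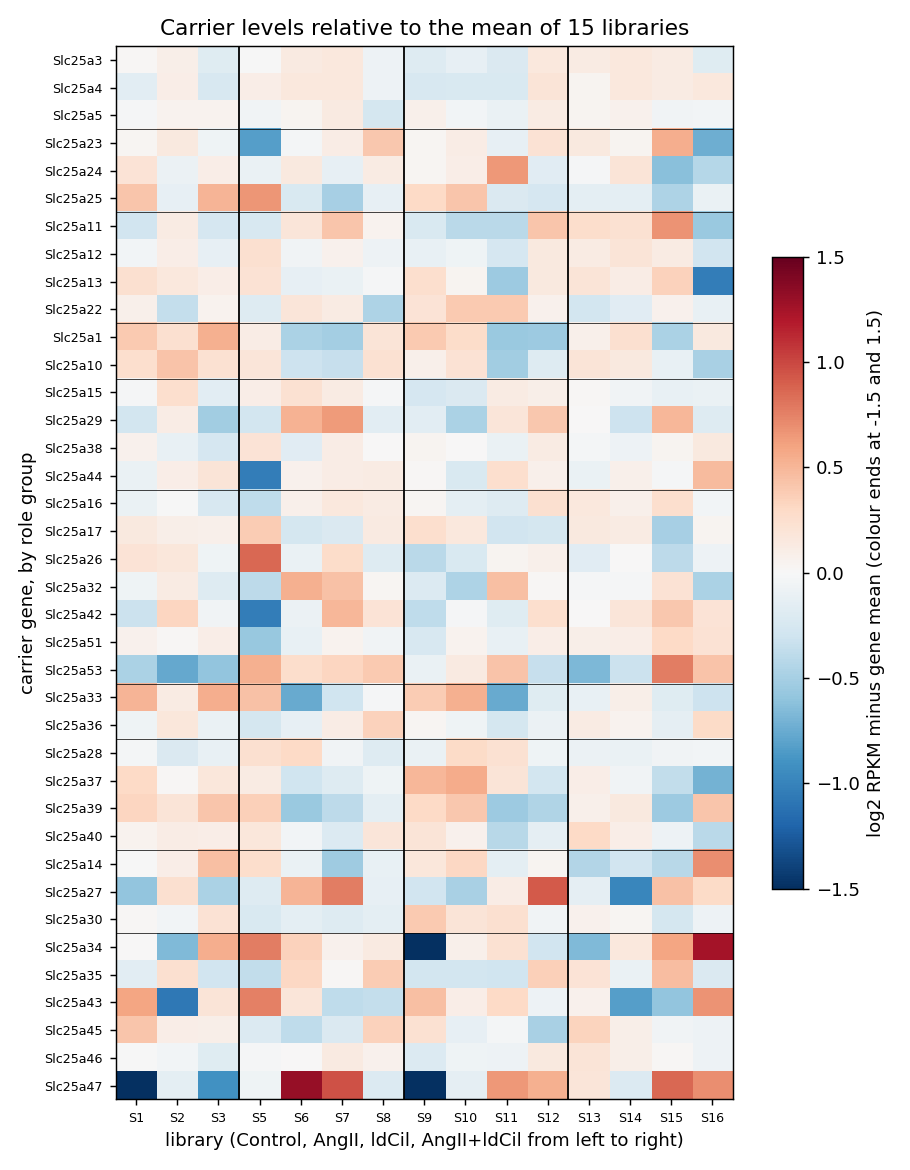
Log2 RPKM of the members reported here minus each gene's mean over the 15 libraries, by role group (rows, thin lines) and library (columns, thick lines between Control, AngII, ldCil and AngII+ldCil), with colours held at −1.5 and 1.5. Slc25a1 and Slc25a39 are blue in S6, S7, S11, S12 and S15, and Slc25a44 and Slc25a42 are darkest in S5, at log2 RPKM of 3.36 and 2.01.

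Genes of other parts of mitochondrial transport were counted in the same way, with no test of whether these lists differ from the carriers. Of 14 genes for carrier import and insertion, 7 lay above and 7 below 0 in AngII against control, with a median of 0.00 and the smallest p in Timm9, a small TIM chaperone (0.34, SE 0.191, unadjusted p = 0.0958, adjusted p = 0.786 by limma). In AngII+ldCil against AngII 11 lay above and 3 below, with a median of 0.04 and the smallest p in Tomm22, a receptor of the TOM complex (0.19, SE 0.112). Of 19 other mitochondrial solute transporters, 2 were lower with AngII at an unadjusted p under 0.05 (2.63% of all genes) and 0 higher, with a median of 0.04. One of them was Sfxn1, a serine carrier (−0.34, SE 0.147), named here after its values were seen. In AngII+ldCil against AngII none was, and the smallest p was that of Micu2, a regulator of the calcium uniporter (−0.17, SE 0.121).

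Of the 7 shuttle enzymes, Gpd1l, a relative of cytosolic glycerol-3-phosphate dehydrogenase, was at 4.71, 4.82 and 4.81 in control, 4.01, 4.42, 4.62 and 4.48 in AngII, 4.70, 4.74, 4.23 and 4.62 in ldCil, and 4.83, 4.79, 4.60 and 4.84 in AngII+ldCil. AngII lay under each control value (difference −0.40, SE 0.152, unadjusted p = 0.0192, adjusted p = 0.782 by limma) and AngII+ldCil above AngII except for an overlap at S15 (difference 0.38, SE 0.141, unadjusted p = 0.0165, adjusted p = 1 by limma). The other 6 had unadjusted p-values over 0.05 in both comparisons. None of the 8 regulators of mitochondrial biogenesis lay under an unadjusted p of 0.05 in either, with the smallest p in Nrf1 for AngII (0.51, SE 0.277) and in Ppargc1b for AngII+ldCil against AngII (0.18, SE 0.130). In AngII+ldCil against control, 3 genes of these lists lay under an unadjusted p of 0.05 by limma, against 5.62% of all genes. The lists held 14 import, 19 transporter, 7 shuttle, 8 regulator and 3 family genes tested. The 3 genes were named after their values were seen. Ppargc1b differed by 0.31 (SE 0.140), Gpd1, the cytosolic glycerol-3-phosphate dehydrogenase, by −0.66 (SE 0.254) and Ucp2 by −0.54 (SE 0.250), each with an adjusted p of 0.849 by limma. In the interaction only Gpd1l lay under that threshold, at 0.59 (unadjusted p = 0.0123, adjusted p = 0.958 by limma), against 3.86% of all genes. In ldCil against control no gene of these lists did so, against 1.95% of all genes. Among 3 family genes with other symbols, Mtch1 differed by 0.17 (SE 0.142) with AngII and Ucp2 by −0.30 (SE 0.232) in AngII+ldCil against AngII.

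In cultures that hold several cell types, fewer cells of a type and less RNA per cell cannot be told apart. Exons of 12 of the 39 members overlap another annotated gene, 10 of them a gene on the opposite strand and 5 a gene that was itself measured (Slc25a11 with Rnf167, Slc25a25 with Naif1, Slc25a26 with Lrig1, Slc25a35 with Rangrf, and Slc25a46 with B930094E09Rik). Whether counting used the strand is not given in the sources used here, so reads of such overlaps cannot be assigned with certainty. Slc25a5 has a processed pseudogene, Slc25a5-ps, that could share its reads.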

How the data were processed

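Poly(A)-captured RNA of 15 libraries was sequenced on an Illumina NextSeq. The authors aligned the reads with HISAT2 to GRCm38 (mm10), counted them with HTSeq and deposited log2 RPKM values after conditional quantile normalisation, which adjusts for gene length and GC content. The sources used here do not give tool versions, annotation release or strandedness. Read counts were not used, and with depth unknown no counting interval could be set. Of 14337 identifiers, 14329 matched GENCODE M21, 12695 with the same version. In 78 rows, 8 unnamed columns held fragments of gene descriptions and were not used.

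Limma 3.58.1 in R 4.3.3 fitted 1 mean per group to all 15 libraries, with no covariate, for the 12848 genes whose mean log2 RPKM was 0 or more. Moderation used a trend on mean level, and Benjamini-Hochberg adjustment of the 2-sided p-values took in every gene tested. Paralog differences and single values were compared by 2-sided exact permutation tests, the 28 paralog tests adjusted together. The code was tested on simulated data. Groups came from the sample labels. Some genes that were tested and counted are not reported here by name. The members and lists were chosen with earlier results of these data known.

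Values in each library are given for the 2 members of lowest p in either direction of a contrast, the 5 with the highest mean, Slc25a3, and the pairs Slc25a4/Slc25a5 and Slc25a12/Slc25a13. The alternatives tried were all genes unfiltered, a stricter filter (mean of 2), RPKM plus 0.1 or 1, median centring, quantile normalisation, fits of only the groups compared, moderation without trend or robust, library weights, and each library left out. Leaving out S5 and S16 together was chosen after seeing the data.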

Additional observations from a re-analysis of the deposited data

Results flagged for a closer look

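In each group of 4 libraries, a member was picked out where its highest or lowest library lay apart from the other 3 by a gap that took up more of the group's range than Dixon's 95% limit allows. Among 117 such groups, 10 did so, 8.55%, against 7.79% of the 38544 such groups over all genes tested, and chance gives about 1 in 20. S16 was the low library of AngII+ldCil for Slc25a3, with a log2 RPKM of 9.20 against 9.50 to 9.54 in the other 3, for Slc25a12, at 5.85 against 6.26 to 6.33, and for Slc25a13, at 3.58 against 4.73 to 4.96. For Slc25a14, a relative of the uncoupling proteins, S16 was the high library at 1.65 against 0.52 to 0.67. S15 was the low library of the same group for Slc25a17, at 3.73 against 4.27 to 4.37, and for Slc25a25, at 3.41 against 3.73 to 3.77. Of the AngII libraries, S5 was low for Slc25a44, at 3.36 against 4.47 to 4.53, and for Slc25a16, at 3.75 against 4.20 to 4.28. Of the ldCil libraries, S12 was high for Slc25a4, at 10.34 against 9.90 to 9.92, and for Slc25a35, at 1.74 against 1.09 to 1.11.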

How the results depend on the processing

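No paired analysis was possible because the labels carry no replicate numbers shared between groups. Members at an adjusted p under 0.05 stayed at 0 in every comparison and alternative except library weights, where they were 19, 0, 7 and 9 of 38 in AngII, ldCil and AngII+ldCil against control and AngII+ldCil against AngII, and 7 in the interaction. That setting called 48.6%, 0.0233%, 18% and 31.5% of all genes in the same order, and 18.6% in the interaction. Its weights ran from 0.113 (S5) to 7.01 (S1). Beside these shares its calls say nothing particular about carriers. Members at an unadjusted p under 0.05 in AngII against control, 2 in the fit above, were 0 with a filter at 2, 1 after quantile normalisation, 4 (2 higher, 2 lower) with only the groups compared, 20 with weights, and 7 (2 higher, 5 lower) without S5 and S16, against 4.91%, 5.38%, 8.18%, 55.5% and 14.7% of all genes. In ldCil against control, from 0, they were 1 without a trend, 5 with weights and 1 without S5 and S16, against 2.24%, 12.3% and 3.73% of all genes. In AngII+ldCil against control, from 1, they were 0 with a filter at 2, with 1 added to RPKM and after quantile normalisation, 3 with only the groups compared, 2 without a trend, 14 with weights and 4 without S5 and S16, the last 4 settings with 10.7%, 5.77%, 32.7% and 7.12% of all genes. In AngII+ldCil against AngII, from 1, they were 14 with weights and 0 without S5 and S16, against 44.9% and 1.82% of all genes. In the interaction, from 1, they were 2 without a trend, 10 with weights and 2 without S5 and S16, against 3.77%, 36.4% and 6.24% of all genes. The median log2 fold change of the members in AngII against control was −0.060 with a filter at 2, −0.037 after quantile normalisation and 0.061 with weights. It was 0.017 with weights and 0.031 without S5 and S16 in AngII+ldCil against control, and 0.014 with weights in the interaction.

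With each library left out in turn, the members at an unadjusted p under 0.05 numbered 1 to 6 in AngII against control. They were 6 without S5 and 4 without S11, with 12.8% and 7.11% of all genes. They were 1 without S1, S3, S6 or S7, with 2.67%, 2.08%, 3.67% and 3.77% of all genes. In ldCil against control they were 0 to 2, with 2 without S9 or S10 (4.04% and 4.31% of all genes). In AngII+ldCil against control they were 0 to 2, with 2 without S2, S12, S13 or S16 (7.17%, 6.14%, 6.21% and 4.28%). In AngII+ldCil against AngII they were 1 to 2, with 2 without S8 (6.02%). In the interaction they were 0 to 3, with 3 without S8 or S15 (7.22% and 7.2%) and 0 without S1 or S3 (2.48% and 2.64%). The medians ranged from −0.022 to 0.039, −0.082 to 0.003, −0.026 to 0.031, −0.024 to 0.052 and −0.014 to 0.089 in the same order, with 0 to 0 members at an adjusted p under 0.05. Signs were followed for the members of lowest p in each contrast and, in AngII against control alone, for the members of highest mean and the named pairs. The small differences of Slc25a3, Slc25a4 and Slc25a5 in AngII+ldCil against AngII were thus not followed. Among those followed, signs turned with weights for Slc25a5 (0.08) and Slc25a23 (0.04) in AngII against control and for Slc25a44 (−0.06) in AngII+ldCil against AngII. Without S5 and S16 they turned for Slc25a23 (0.13), Slc25a12 (0.00) and Slc25a44 (−0.11). Leaving out 1 library turned Slc25a3 (−0.01 without S3), Slc25a23 (0.13 without S5), Slc25a12 (0.00 without S5) and Slc25a5 (0.02 without S8), all in AngII against control, where over all libraries left out Slc25a3 ranged from −0.01 to 0.13, Slc25a5 from −0.12 to 0.02, Slc25a12 from 0.00 to 0.12 and Slc25a23 from −0.28 to 0.13. The cause of these changes was not tested. The paralog tests cannot pass at these group sizes, so their count of 0 in each setting says nothing about stability. The unknown depth limits what can be said of members near 1 RPKM.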
